A study of Mus musculus with 60 samples.

Results

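The 9 genes of the Notch pathway described here were followed in mouse duodenal organoids in which CDK2 or CDK5 was targeted, cultures of the lining of the first stretch of the small intestine. They were the receptors Notch1, Notch2 and Notch3, the ligands Dll1, Dll4, Jag1 and Jag2, the target gene Hes1 and the DNA-binding partner Rbpj. All 9 were found by symbol among the 24905 genes that had a value in each of 13 comparisons in the authors' deposited table, which lists 41018 genes in all.

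By its labels the study targeted the cell-cycle kinase CDK2 with a degron and with a conditional knockout, and the related kinase CDK5 with a degron only. In the degron arm, wild-type organoids (WT-dTAG) and organoids homozygous for a degradable CDK2 (CDK2-dTAG) or CDK5 (CDK5-dTAG) received DMSO or 250 nM dTAG-13, a small molecule that brings a dTAG-fused protein to a ubiquitin ligase, for 6 or 24 h. In the knockout arm, organoids were wild type (WT-cKO) or homozygous for a conditional CDK2 knockout (CDK2-cKO). These were given either DMSO or 4-OHT, the active form of tamoxifen that is used to turn on inducible Cre, at 1 uM for 24 or 48 h. The labels give each of the 20 groups (12 degron, 8 knockout) 3 samples, 60 in all, and RNA was read from its 3′ end. The labels name neither the Cre nor the cells it acts in, do not say whether WT-cKO carries it, and do not say whether replicates were separate cultures or animals. The test behind the p-values is not stated, so the spread they measure is not known. Spread between these samples may be technical. Organoids were grown in Matrigel in a commercial intestinal medium. Of markers of the labelled epithelium, 12 of 12 for stem cells and 11 of 12 for enterocytes were among the well measured genes defined below, but 0 of 7 for tuft cells. Of markers of other tissues with values, 0 of 7 mesenchymal, 0 of 6 immune and 1 of 7 endothelial ones, Pecam1, were.

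Notch signalling passes between touching cells. A Delta or Jagged ligand on the sending cell pulls on a Notch receptor, proteases including gamma-secretase release the receptor's intracellular part, and this fragment joins Rbpj on DNA to switch on repressors such as Hes1. In intestinal crypts Notch keeps stem and progenitor cells undifferentiated, and Hes1 represses Atoh1, the factor that commits cells to the secretory lineage. Dll1 and Dll4 are the ligands known to act in the mouse crypt, largely on Notch1 and Notch2.

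RefSeq promoter windows on GRCm38.p6, running from 250 bases before to 50 after a start, were held for 8 of the 9 members, all but Hes1, in 10 entries of 300 bases. The windows of Dll1 and Dll4 are shown because these ligands had the most similar responses among the ligands, and that of Rbpj because it was the only one of these 8 whose windows held the RBPJ core motif; the Hes1 promoter was not analysed here. Capitals mark that motif, TGGGAA, or TTCCCA where it lies on the other strand.

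Dll4, chr2:119325534-119325833, plus strand: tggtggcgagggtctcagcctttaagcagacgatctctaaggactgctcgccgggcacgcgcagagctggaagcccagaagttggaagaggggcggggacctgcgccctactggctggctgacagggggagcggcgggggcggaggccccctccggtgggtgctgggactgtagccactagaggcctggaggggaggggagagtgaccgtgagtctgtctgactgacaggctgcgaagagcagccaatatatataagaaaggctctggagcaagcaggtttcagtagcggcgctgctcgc
Dll1, chr17:15376883-15377182, minus strand: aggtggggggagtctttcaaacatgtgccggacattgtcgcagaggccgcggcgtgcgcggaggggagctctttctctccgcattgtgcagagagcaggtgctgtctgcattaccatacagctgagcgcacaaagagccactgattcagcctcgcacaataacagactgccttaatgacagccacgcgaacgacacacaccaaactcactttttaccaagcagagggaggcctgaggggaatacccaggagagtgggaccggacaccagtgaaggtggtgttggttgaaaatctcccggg
Rbpj, chr5:53590096-53590395, plus strand: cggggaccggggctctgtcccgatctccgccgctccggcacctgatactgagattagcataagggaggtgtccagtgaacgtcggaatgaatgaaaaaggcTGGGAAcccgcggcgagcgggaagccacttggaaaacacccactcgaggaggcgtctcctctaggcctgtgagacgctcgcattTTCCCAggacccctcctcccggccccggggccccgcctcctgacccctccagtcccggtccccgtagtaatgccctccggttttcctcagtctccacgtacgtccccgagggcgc

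The Rbpj window held the core at -149 on the gene's strand and at -65 on the other strand, counted from the start. A further Rbpj window, which overlaps it, held the second of these matches at -205. Of 32851 mouse promoters of this length, 8397 (25.6%) held the core on either strand. The N-box CACNAG, a motif bound by Hes repressors, was present in 42.5% of all promoters. It occurred 3 times in the Notch1 window, 2 times in that of Notch3, 1 time in those of Notch2, Dll4 and the Dll1 window shown, and 0 times in the other Dll1 window and in those of Jag1, Jag2 and Rbpj. These are matches of letters, and no binding was measured here.

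The values are the log2 fold changes and p-values in the authors' deposited table, treated against DMSO unless stated. That table holds no value per sample, so neither levels, group overlap nor sequencing depth can be shown. A standard error was derived from each log2 fold change and its p-value, and 95% intervals follow from it. Precision differed widely among the members. The median standard error over the 13 comparisons was 0.150 for Hes1, which put it in the best measured 1.26% of genes, and 0.230 for Rbpj, at the 15.8th percentile. It was 0.405 for Dll4, 0.418 for Jag1, 0.454 for Dll1, 0.467 for Notch2 and 0.515 for Jag2. It was 0.934 for Notch1 and 1.24 for Notch3, against a median of 1.17 over all genes. To reach an unadjusted p of 0.05, Hes1 needed a change of 1.23-fold, whereas Notch1 needed 3.56-fold and Notch3 5.42-fold. Genes whose median error did not exceed 0.5 are called well measured below; they numbered 9526, among them 6 members.

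**Figure D1:**
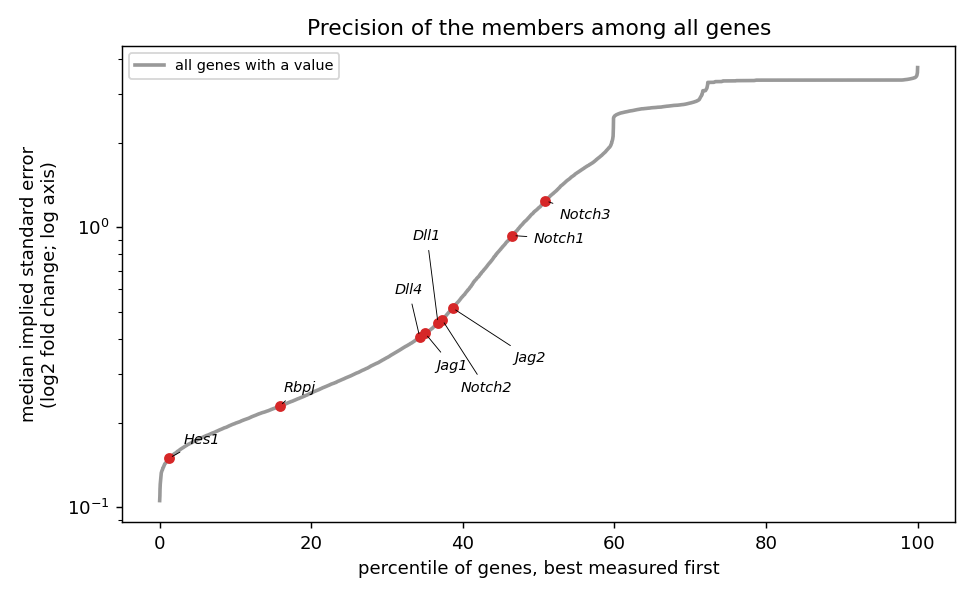
Median implied standard error of the log2 fold change over 13 comparisons (log axis) against the percentile of genes ordered by it; the grey line is all genes with a value and red points are the 9 members. Hes1 lies at the well measured end, at 0.150, and Notch3 at 1.24.

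No member was called at an FDR-adjusted p under 0.05 in any of the 13 comparisons of the authors' deposited table, where the smallest adjusted p of a member was 0.989. The percentage of all genes called was 0.0642% in WT-cKO at 24 h, 0.0241% in CDK2-cKO at 48 h and 0% in the other 8 treatment comparisons. Between DMSO times it was 0.0803% in WT-dTAG, 0.0361% in CDK2-dTAG and 0% in WT-cKO. Of the 90 member values over the 10 treatment comparisons, 1 had an unadjusted p under 0.05 (1.11%), against 1.51% of all values and 2.13% of those of well measured genes. The share of all genes with such a p in the degron arm, at 6 and 24 h, was 0.799% and 1.08% in WT-dTAG, 0.903% and 1.07% in CDK2-dTAG, and 0.952% and 1.99% in CDK5-dTAG. In the knockout arm, at 24 and 48 h, it was 2.98% and 1.83% in WT-cKO and 1.3% and 2.21% in CDK2-cKO. Pooled over the 10 treatment comparisons, 0.00883% of values passed the FDR threshold. Effects on the members were thus not detectable at the precision given for each gene below, narrow for Hes1 and several-fold wide for Notch1 and Notch3.

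**Figure D2:**
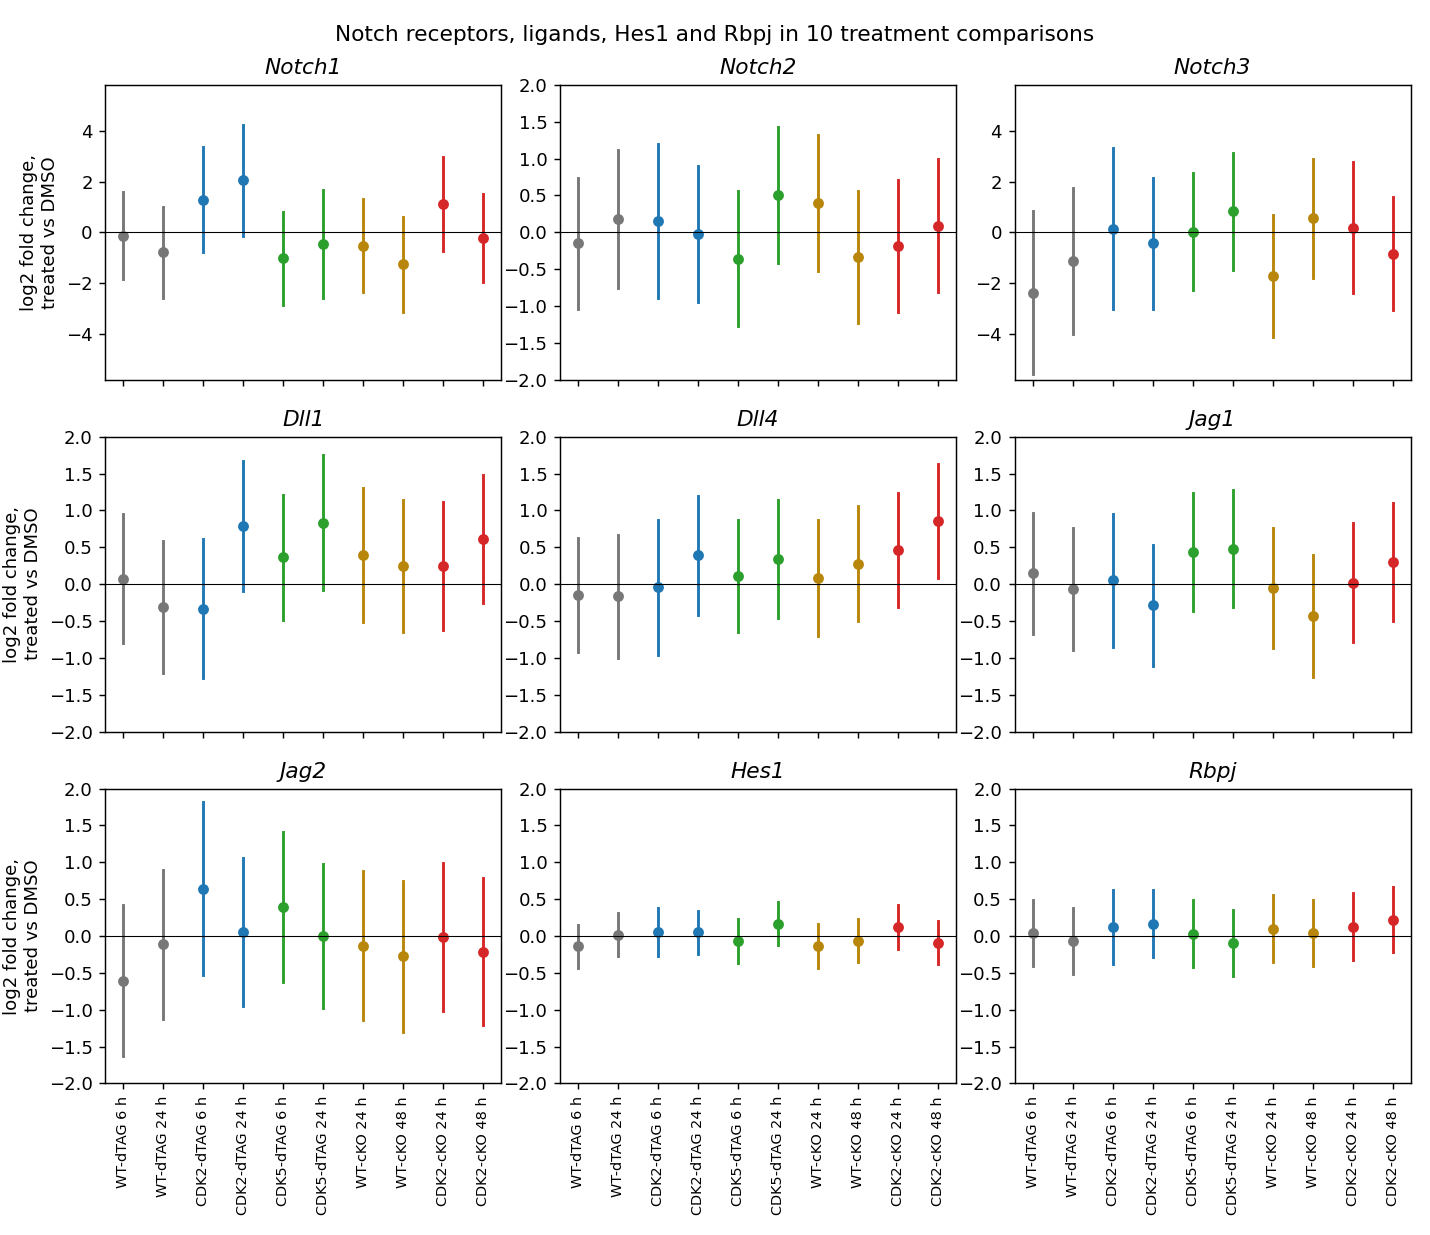
Log2 fold change, treated against DMSO, of each member in 10 treatment comparisons (points) with 95% intervals (lines), coloured by genotype; the Notch1 and Notch3 panels have a wider axis. All intervals cross 0 except that of Dll4 in CDK2-cKO at 48 h, which runs from 0.08 to 1.63.

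Among the receptors, Notch2 gave the narrowest intervals and stayed closest to 0. Notch2 lies on chromosome 3 at 98013527 to 98150361, plus strand (GENCODE M21, GRCm38). Its log2 fold change in the authors' deposited table was -0.15 at 6 h and 0.18 at 24 h in WT-dTAG, 0.15 and -0.02 in CDK2-dTAG, and -0.35 and 0.50 in CDK5-dTAG. In the knockout arm of the authors' deposited table Notch2 was at 0.40 at 24 h and -0.34 at 48 h in WT-cKO, and at -0.18 and 0.09 in CDK2-cKO. Signs were mixed, with 5 of 10 above 0, and all intervals lay between -1.26 and 1.43. The smallest p for Notch2 in a treatment comparison was 0.285, in CDK5-dTAG at 24 h.

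Notch1, a receptor of crypt stem and progenitor cells, had the highest value of any member but with a wide error. It lies on chromosome 2 at 26457903 to 26516663, minus strand. In the authors' deposited table it was at 1.29 at 6 h and 2.05 at 24 h in CDK2-dTAG, a 4.14-fold level at 24 h with a 95% interval of 0.909 to 18.9-fold (p = 0.0662, FDR-adjusted p = 0.996). For WT-dTAG and CDK5-dTAG the authors' deposited table put Notch1 at -0.12 and -0.78, and at -1.03 and -0.45, at 6 and 24 h. Of the degron lines CDK2-dTAG was thus the one with positive values, and its intervals overlapped those of the others at both times. Under 4-OHT the authors' deposited table put Notch1 at -0.53 and -1.26 in WT-cKO and at 1.11 and -0.21 in CDK2-cKO, at 24 and 48 h. Over the 10 treatment comparisons 3 values were above 0 and 7 below. The 24 h DMSO samples of CDK2-dTAG also enter a comparison with DMSO at 6 h, and there the authors' deposited table put Notch1 at -1.02 (p = 0.426). The 2 values share those samples and are set side by side only.

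Notch3, a receptor best known from the muscle cells of vessel walls, was the least well measured member. It lies on chromosome 17 at 32120820 to 32166852, minus strand. In the authors' deposited table its values ran from -2.38 in WT-dTAG at 6 h to 0.83 in CDK5-dTAG at 24 h, and its intervals reached from -5.58 to 3.32. Its smallest p was 0.146, in WT-dTAG at 6 h. These widths leave changes of several-fold in either direction undetectable. The 7 measured markers of mesenchyme all had a median standard error above 2. In GENCODE the opposite-strand transcripts 0610009E02Rik and Gm13568 cover the 3′ end of Notch1, and Gm17276 covers that of Notch3. The sources used here do not say how strand was treated in quantification, so reads of these genes and their partners may not be separate.

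Among the ligands, Dll4 gave the member value with the smallest p. Dll4 lies on chromosome 2 at 119325784 to 119335962, plus strand. In CDK2-cKO at 48 h the authors' deposited table put it at 0.86, or 1.81-fold, with a 95% interval of 1.06 to 3.09-fold (p = 0.0302, FDR-adjusted p = 0.996). It was the 1 member of 9 with an unadjusted p under 0.05 in that comparison, in which 2.21% of all genes, and 4.15% of the well measured ones, had such a p. At 24 h in the same organoids Dll4 was at 0.46 in the authors' deposited table, and WT-cKO stood at 0.08 and 0.27 at 24 and 48 h. All 4 knockout values of Dll4 were above 0. In the degron arm of the authors' deposited table Dll4 was at -0.15 and -0.17 in WT-dTAG, -0.04 and 0.39 in CDK2-dTAG, and 0.12 and 0.34 in CDK5-dTAG, at 6 and 24 h.

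Cell type markers are given beside the Dll4 value in CDK2-cKO at 48 h, where 0 of them passed the FDR threshold. Their median log2 fold change in the authors' deposited table was -0.48 over 12 enterocyte markers, of which 11 were below 0, and 0.31 over 12 stem cell markers, of which 11 were above 0. It was 0.61 over 8 secretory lineage factors, 0.28 over 9 Paneth cell markers, 0.20 over 9 goblet cell markers and 0.30 over 10 enteroendocrine markers. The median was -0.06 over all genes and -0.02 over the well measured ones. An unadjusted p under 0.05 was reached there by 2 enterocyte markers, both lower, 4 stem cell markers and 1 secretory factor, all higher, 1 Paneth and 1 enteroendocrine marker, both lower, and 0 goblet markers, against 2.21% of all genes and 4.15% of the well measured ones. In WT-cKO at 48 h the medians in the authors' deposited table were -0.84 for the enterocyte markers, 0.16 for stem cell markers, 0.42 for secretory factors, 0.05 for Paneth, 0.35 for goblet and 0.37 for enteroendocrine markers, with the same signs as in CDK2-cKO. There 5 enterocyte markers, all lower, and 2 goblet and 1 Paneth marker, all higher, had an unadjusted p under 0.05. The stem cell, secretory and enteroendocrine lists had 0 each, and the share of all genes was 1.83%. The part of these markers in the Dll4 value was not tested, and in bulk RNA fewer cells of a type and less RNA per cell cannot be told apart. Of 7 endothelial markers, which mark another cell type known for Dll4, 5 had a median standard error above 2. The 1 well measured endothelial marker, Pecam1, was at 0.45 in that comparison.

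Dll1 lies on chromosome 17 at 15367354 to 15376872, minus strand, and is, like Dll4, a ligand of secretory progenitors. In the authors' deposited table Dll1 was at 0.79 at 24 h in CDK2-dTAG (1.73-fold, interval 0.941 to 3.19-fold, p = 0.0777). It was at 0.84 at 24 h in CDK5-dTAG in the authors' deposited table (1.79-fold, interval 0.949 to 3.36-fold, p = 0.072). Both 24 h values had an FDR-adjusted p near 1, and both intervals include 0 on the log2 scale. Beside them, the authors' deposited table put 12 of 12 stem cell markers above 0 in CDK2-dTAG at 24 h (median 0.34), and 7 of 12 in CDK5-dTAG (median 0.06). In each, 1 of the 12 had an unadjusted p under 0.05, against 1.07% and 1.99% of all genes. All 12 were well measured, and of well measured genes 51.5% and 46.8% were above 0. In CDK5-dTAG at 24 h the endothelial marker Pecam1 was at 1.15 in the authors' deposited table (p = 0.000894, FDR-adjusted p = 1). Of the 7 endothelial markers with values, 4 were above 0 there and 3 below. Pecam1 alone of them was well measured, and 5 had a median standard error above 2. The part of the stem cell and endothelial markers in the Dll1 values was not tested. At 6 h the authors' deposited table gave -0.33 in CDK2-dTAG and 0.36 in CDK5-dTAG, and WT-dTAG stood at 0.07 and -0.31 at 6 and 24 h. For the knockout arm the authors' deposited table put Dll1 at 0.40 and 0.25 in WT-cKO and at 0.25 and 0.61 in CDK2-cKO, at 24 and 48 h. The CDK2-dTAG value at 24 h shares its DMSO samples with the comparison of 24 h with 6 h under DMSO, where the authors' deposited table put Dll1 at -0.76 (p = 0.123). In that comparison 9 of the 12 stem cell markers were below 0 (median -0.19).

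Over the 10 treatment comparisons Dll1 was above 0 in 8 and Dll4 in 7, and the pair had the same sign in 9. Pearson's r between their log2 fold changes was 0.70 and Spearman's rho 0.70 over these 10 points, which come in pairs from 5 organoid genotypes. Without the 2 points farthest from the median Dll1 value, CDK2-dTAG at 6 h and WT-dTAG at 24 h, r was 0.53. Of the 36 pairs of members, Dll1 with Dll4 and Notch3 with Hes1 had the highest r, 0.70 each, and the latter was 0.42 without its 2 farthest points. The median r over the 36 pairs was 0.14, with 27 above 0. These values describe 10 points and carry no test.

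**Figure D3:**
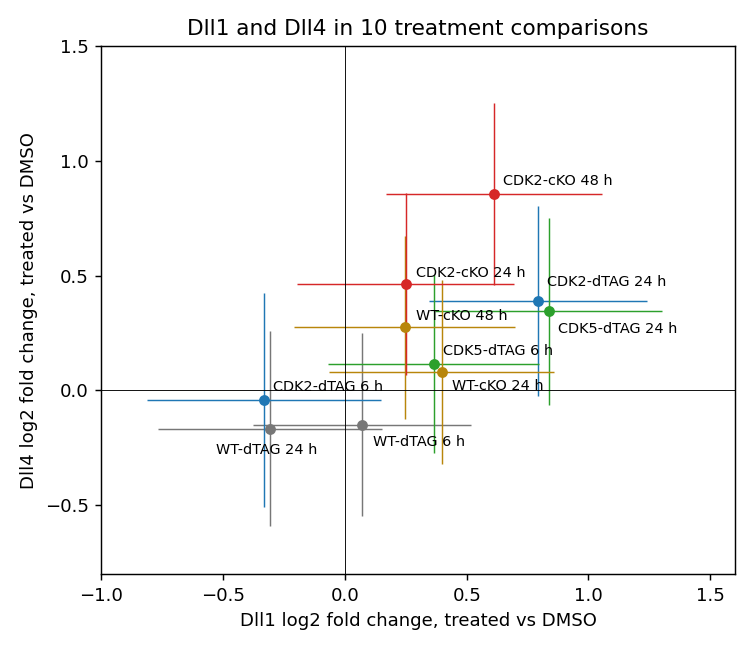
Dll4 against Dll1 log2 fold change, treated against DMSO, in 10 treatment comparisons; bars are 1 implied standard error and colours the genotype. In 9 of 10 points both ligands have the same sign, and CDK2-cKO at 48 h is highest for Dll4, at 0.86.

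The Jagged ligands had values on both sides of 0. Jag1, on chromosome 2 at 137081456 to 137116644 (minus strand), ran in the authors' deposited table from -0.43 in WT-cKO at 48 h to 0.48 in CDK5-dTAG at 24 h. Its CDK5-dTAG values in the authors' deposited table were 0.44 at 6 h and 0.48 at 24 h, its CDK2-dTAG values 0.05 and -0.28, and its WT-dTAG values 0.15 and -0.07. In the CDK2-cKO organoids of the authors' deposited table Jag1 was at 0.02 and 0.30, at 24 and 48 h. No Jag1 interval excluded 0, and the smallest p was 0.235, in CDK5-dTAG at 24 h. Jag2, on chromosome 12 at 112907819 to 112929776 (minus strand), ran from -0.60 in WT-dTAG at 6 h to 0.64 in CDK2-dTAG at 6 h in the authors' deposited table, which are its lowest and highest treatment values. The 6 h DMSO samples of CDK2-dTAG also enter the comparison of 24 h with 6 h under DMSO. There the authors' deposited table put Jag2 at 0.65 (p = 0.276), and values that share samples are set side by side only. At 24 and 48 h the treatment values of Jag2 in the authors' deposited table lay between -0.28 and 0.05. The CDK2-dTAG comparison at 6 h carried errors 1.12 times those of WT-dTAG at 6 h over the 325 best measured genes, and the comparison of 24 h with 6 h under DMSO in CDK2-dTAG likewise 1.12 times, while the other 11 of the 13 comparisons were within 1.01 times. Both use the 6 h DMSO samples of CDK2-dTAG. By the arithmetic of group sizes alone, 2 samples in place of 3 in 1 of the groups would give errors 1.12 times as large, and no source used here states how many samples the authors fitted.

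Hes1, the repressor that reads out Notch activity in the crypt, was the best measured member and the one with the tightest bounds. It lies on chromosome 16 at 30064384 to 30067796, plus strand. In the authors' deposited table its log2 fold change was -0.14 at 6 h and 0.02 at 24 h in WT-dTAG, 0.06 and 0.05 in CDK2-dTAG, and -0.07 and 0.17 in CDK5-dTAG. In the knockout arm of the authors' deposited table Hes1 was at -0.13 and -0.06 in WT-cKO and at 0.12 and -0.09 in CDK2-cKO, at 24 and 48 h. The 10 values lay on both sides of 0, with 5 above and 5 below, and their intervals together ran from -0.43 to 0.46. On the linear scale this is 0.741 to 1.38-fold, so a change of Hes1 RNA beyond 1.38-fold up or below 0.741-fold lay outside every treatment interval. Read with a t distribution of 4 degrees of freedom in place of the normal, the bounds were -0.51 and 0.53. Between DMSO times the authors' deposited table put Hes1 at -0.20 in WT-dTAG (p = 0.172) and at -0.03 in WT-cKO.

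Rbpj, the DNA-binding protein that turns from repressor to activator when the Notch fragment joins it, also stayed near 0. It lies on chromosome 5 at 53466152 to 53657362, plus strand. Its lowest treatment value in the authors' deposited table was -0.10 in CDK5-dTAG at 24 h and its highest 0.22 in CDK2-cKO at 48 h. Of its 10 values 8 were above 0, and the smallest p was 0.324. All Rbpj treatment intervals lay between 0.685 and 1.59-fold. GENCODE lists 2 processed pseudogenes, Rbpj-ps1 and Rbpj-ps3, neither of which has values here, and reads shared with them could be assigned to either.

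Whether a response differed between a genotype and its wild type was tested on the difference of the 2 log2 fold changes. No gene was called in any of these 6 differences, nor in the 5 differences between times, so that 0% of all genes and 0 members passed. Of the 99 member differences, 1 had an unadjusted p under 0.05, against 1.4% of all differences. It was Notch1 in CDK2-dTAG minus WT-dTAG at 24 h, where the responses differed by 2.83 (SE 1.44, interval 0.01 to 5.66). A two-sided normal test computed from the values of the authors' deposited table gave p = 0.0494 for it, and an adjusted p of 0.995. For the same difference 1.32% of all genes had an unadjusted p under 0.05. Dll1 differed from WT-dTAG at 24 h by 1.10 in CDK2-dTAG (SE 0.642, interval -0.16 to 2.36) and by 1.14 in CDK5-dTAG (SE 0.653, interval -0.14 to 2.42). Both of these subtract the same WT-dTAG value, and both intervals include 0. For Dll1 in CDK2-dTAG the 24 h response minus the 6 h response was 1.13 (SE 0.658, interval -0.16 to 2.42).

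Dll4 and Jag2 had a positive difference from wild type in 6 of 6, ranging from 0.11 to 0.58 for Dll4 and from 0.07 to 1.25 for Jag2. Every one of these 12 intervals includes 0, and in 4 of the 6 differences the WT-dTAG values at 6 and 24 h are each used for both degron lines. Those WT-dTAG values were below 0 for Dll4 (-0.15 and -0.17) and for Jag2 (-0.60 and -0.11). The share of all genes with 6 of 6 above 0 was not computed. For Dll4 in CDK2-cKO at 48 h, the difference from WT-cKO was 0.58 (interval -0.52 to 1.68), so the CDK2-cKO value was not separated from the response of wild-type organoids to 4-OHT. Hes1 gave the narrowest differences, from -0.03 to 0.26, with all intervals between -0.44 and 0.67. Those of Rbpj ran from -0.03 to 0.24, with intervals between -0.66 and 0.87.

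**Figure D4:**
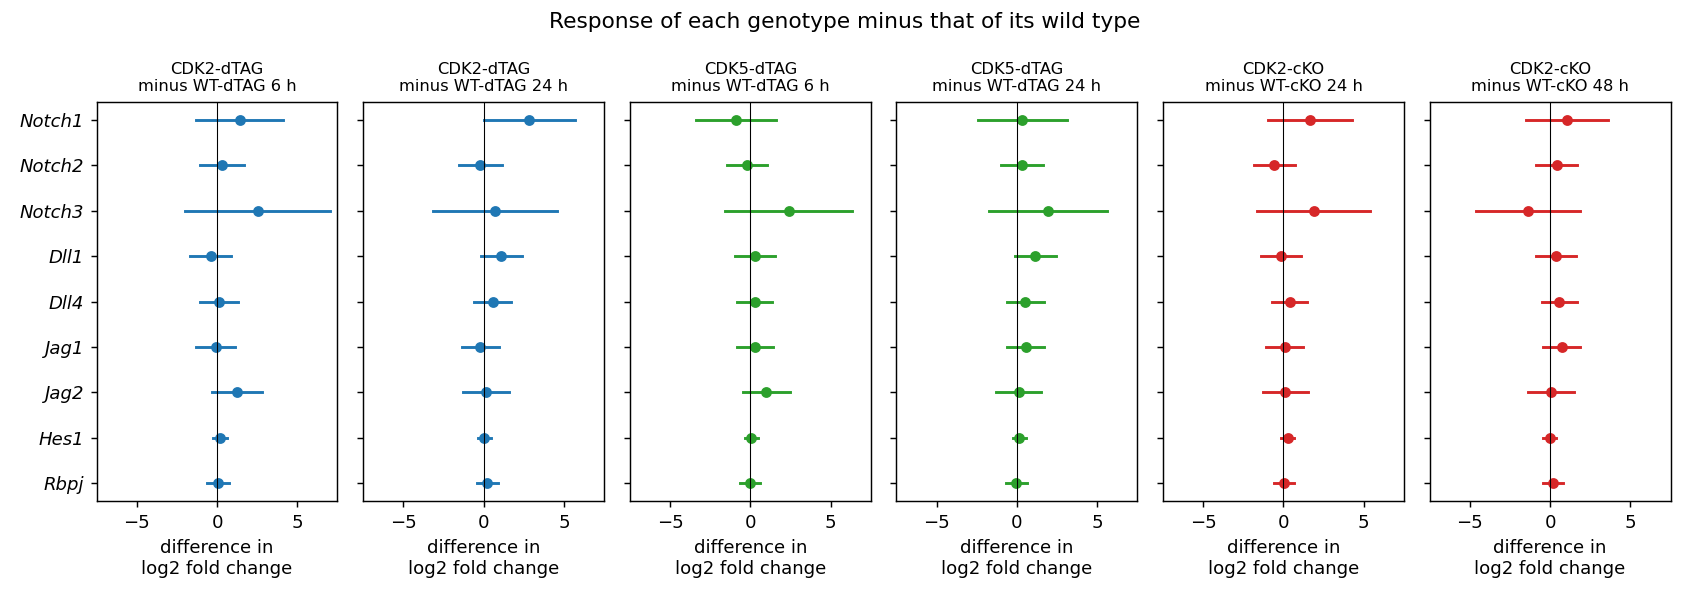
Difference in log2 fold change, genotype minus its wild type at the same time, for each member (points) with 95% intervals (lines). Notch1 in CDK2-dTAG at 24 h, at 2.83, is the 1 interval that does not cross 0, and Hes1 and Rbpj have the shortest intervals.

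The rest of the pathway was read in 7 lists of 68 genes, 65 of them with values. Of their 650 treatment values, 14 (2.15%) had an unadjusted p under 0.05, 11 higher and 3 lower, and none an FDR-adjusted p under 0.05. That share is near the background of 1.51% of all values and 2.13% of those of well measured genes, so the values named next are descriptions. Of the 90 values of the 9 receptor cleavage genes, all well measured, 5 (5.56%) had such a p, against the same 2.13%, and no test of that difference was made. Ncstn, the gamma-secretase subunit nicastrin, was in the authors' deposited table at 0.61 in CDK5-dTAG at 24 h (p = 0.0055), at 0.45 in CDK2-cKO at 24 h (p = 0.0456) and at -0.44 in the same organoids at 48 h (p = 0.0458). Aph1b, another gamma-secretase subunit, was at -1.14 in CDK5-dTAG at 24 h (p = 0.0086) and at -0.87 in WT-dTAG at 6 h (p = 0.0384) in the authors' deposited table. These subunits of 1 protease thus stood on opposite sides of 0 in CDK5-dTAG at 24 h, and all 5 values had an FDR-adjusted p above 0.99.

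In CDK2-dTAG at 24 h the authors' deposited table gave 4 such values among the 65 genes (6.15%), all positive, against 1.07% of all genes, of which 151 were higher and 116 lower. That share was the highest of the 10 treatment comparisons. Of the 65 genes 44 were well measured, and such genes reach this p more often, in 2.13% of pooled values against 1.51% of all. Their share in CDK2-dTAG at 24 h was not computed, so the contrast with 1.07% is a description. The 4 genes were Mib1, the ubiquitin ligase that activates ligands, at 0.61 (p = 0.0354), Pofut1, which fucosylates the receptors, at 0.44 (p = 0.0445), the acetyltransferase Kat2a at 0.73 (p = 0.0262) and the ligand-like Dner at 1.39 (p = 0.0485) in the authors' deposited table. The coactivator Maml1 was at 1.02 in CDK2-dTAG at 6 h (p = 0.0304), and the Rbpj corepressor L3mbtl3 at 0.66 in WT-cKO at 24 h (p = 0.048), in the authors' deposited table. Itch, a ubiquitin ligase for the receptors, was at 0.47 in CDK5-dTAG at 24 h (p = 0.0445) and Hes7 at 2.16 in CDK5-dTAG at 6 h (p = 0.0311) in the authors' deposited table. None of these genes had an unadjusted p under 0.05 in the same direction at both times of a genotype. Of the 7 other Hes, Hey and Nrarp genes with values, Hes6 alone was well measured (median standard error 0.205), and Hey1, Heyl and Nrarp had errors above 2.

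Among the secretory lineage factors, which Notch restrains, Insm1 of the enteroendocrine lineage had the 1 unadjusted p under 0.05, at 0.80 in CDK2-cKO at 48 h in the authors' deposited table (p = 0.0141). In that comparison the authors' deposited table put Neurod1 at 0.58 (p = 0.055), Spdef at 0.64 (p = 0.085), Neurog3 at 0.82 (p = 0.138) and Atoh1 at -0.12 (p = 0.728). Of the 8 factors with values 7 were above 0 there, all but Atoh1, the gene that Hes1 is known to repress. Of all genes 37.3%, and of well measured genes 46.9%, were above 0 in that comparison. Of the 8 factors 5 were well measured. The number of factors above 0 was also 7 in CDK5-dTAG at 24 h, and was 6 in WT-cKO at 48 h, in CDK2-cKO at 24 h and in CDK2-dTAG at both times. It was 5 in CDK5-dTAG at 6 h, 4 in WT-cKO at 24 h, and 1 and 2 in WT-dTAG at 6 and 24 h. Over the 10 treatment comparisons 45.7% to 51.7% of well measured genes, and 35.7% to 65.7% of all genes, were above 0. In WT-dTAG at 6 and 24 h the share of all genes was 64.9% and 64.7%. In WT-cKO at 48 h the authors' deposited table put Spdef at 0.73, Neurog3 at 0.84 and Insm1 at -0.08. Over the 10 treatment comparisons Atoh1 ran from -0.28 to 0.47.

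**Figure D5:**
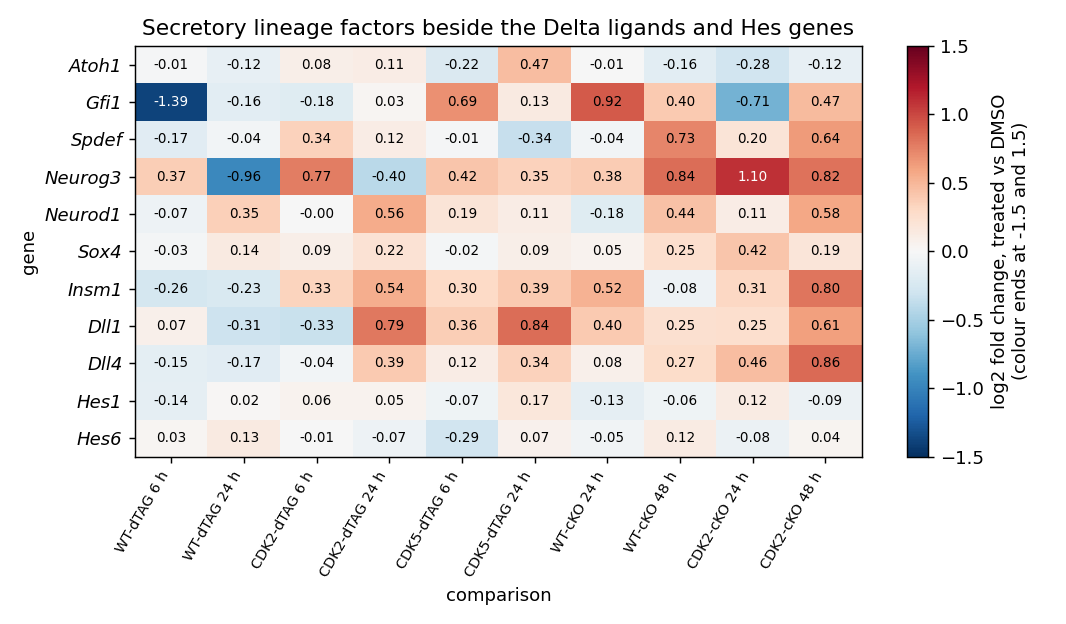
Log2 fold change, treated against DMSO, of secretory lineage factors, Dll1, Dll4, Hes1 and Hes6 in 10 treatment comparisons; red is higher and blue lower in treated organoids. In CDK2-cKO at 48 h Insm1 (0.80) and Dll4 (0.86) are red, while Hes1 (-0.09) and Atoh1 (-0.12) are near white.

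For each well measured member, the genes with the most similar log2 fold changes over the 10 treatment comparisons were sought among 9525 well measured genes. They were Bcap29 (r = 0.904) and Irak2 (0.871) for Notch2, Stat6 (0.892) and Atic (0.883) for Dll1, and Ssbp3 (0.938) and Syncrip (0.909) for Dll4. They were Cdc42se2 (0.922) and Mfsd14b (0.921) for Jag1, Zcchc14 (0.937) and Gnb1 (0.925) for Hes1, and Taok3 (0.937) and Dpysl5 (0.931) for Rbpj. No member was the nearest to another. Each r rests on 10 points and was picked as an extreme of 9525 genes, so it is a description and carries no test. The lowest r was of similar size, from -0.914 for Jag1 with AC131033.1 to -0.969 for Hes1 with Mrpl18, larger in size than the highest for 4 of the 6 members and smaller for Jag1 and Rbpj.

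As a check on the arms themselves, the authors' deposited table put Cdk2 RNA at -0.64 in CDK2-cKO at 48 h (p = 0.0046) and at -0.53 in WT-cKO at 48 h (p = 0.0125), so that it was below 0 in both genotypes. At 24 h the authors' deposited table put Cdk2 at -0.35 in CDK2-cKO (p = 0.103) and at 0.26 in WT-cKO (p = 0.216). Neither value thus reached an unadjusted p under 0.05. At either time no gene, Cdk2 included, was called in the difference between these genotypes. A knockout need not lower reads from the 3′ end of its gene, so these values do not settle whether Cdk2 was lost. A degron acts on the protein, which was not measured here, and RNA of the tagged gene checks nothing. In WT-cKO at 24 h, 10 spermatid transcripts had a median log2 fold change of 5.43 in the authors' deposited table. Of these 8 were called, against 0.0642% of all genes. These transcripts were listed with earlier results of these data known, so their count is a description and no test. Their part in the members' values of that comparison was not tested.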

How the data were processed

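RNA from 60 organoid samples was prepared with a QuantSeq 3′ FWD kit, per the labels' protocols, and quantified with Salmon (version not given), per the submitters' processing notes. No genome build, annotation, normalization or statistical test is named in the sources used here. Every value starts from the authors' deposited table, whose 13 comparisons each give, per the file headers, a log2 fold change, its linear fold ratio, a p-value, an FDR-adjusted p-value and a Bonferroni p-value. It was checked that the fold is 2 to the power of the log2 value and that the adjusted p is a Benjamini-Hochberg adjustment. Depth is unknown, since no values of single samples were analysed here. In each treatment comparison 5272 to 7000 genes carry 1 identical log2 fold change, to 3 decimals, and no member is among them.

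Standard errors were obtained by dividing the absolute log2 fold change by the z value matching its p. That presumes a Wald-type test, which no source states. Its median coefficient of variation over comparisons was 0.0442, against 0.0703 with a t distribution of 4 degrees of freedom. Intervals are 95% normal. Unadjusted p-values under 0.05 made up 1.51% of all treatment values and 2.13% of those of well measured genes. Both shares are smaller than the 0.05 that exact p-values give without any effect. The p-values and the intervals may thus be conservative. Differences combine errors as independent and are adjusted by Benjamini-Hochberg over 24905 genes, at a threshold of 0.05. The arithmetic was checked on simulated normal values with these same errors, which cannot test the Wald-type form or the independence. Well measured means a median error of at most 0.5. The members, the lists and the naming rule were chosen with earlier results of these data known. The rule named every member, and of each other pathway list the genes with unadjusted p under 0.05, at most 3 per list and comparison. Other lists held receptors and ligands, cleavage, glycosylation, trafficking, nuclear cofactors, targets and secretory factors. Hes3, Hey2 and Gfi1b had no value. Gene positions are from GENCODE M21. Python 3.11, pandas 2.3.3, numpy 2.4.6, scipy 1.17.1 and matplotlib 3.10.9 were used.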

Additional observations from a re-analysis of the deposited data

How the results depend on the processing

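No paired analysis was possible because the table holds comparisons and no values per sample; for the same reason no replicate could be left out. A Bonferroni adjustment cannot call a member that the FDR does not, so its counts of members were bound to stay at 0. Of 85 counts of members called under the alternatives, these included, 84 were unchanged at 0. The exception was CDK2-cKO at 48 h, with 1 member (Dll4) at an unadjusted p under 0.05. At that threshold the genes called were, in the degron arm at 6 and 24 h, 199 and 269 in WT-dTAG, 225 and 267 in CDK2-dTAG, and 237 and 495 in CDK5-dTAG. In the knockout arm at 24 and 48 h they were 741 and 455 in WT-cKO and 324 and 550 in CDK2-cKO, and between DMSO times 816 in WT-dTAG, 677 in CDK2-dTAG and 354 in WT-cKO. By Bonferroni they were 6 in WT-cKO at 24 h, 3 in CDK2-cKO at 48 h, 9 in WT-dTAG between DMSO times and 5 in CDK2-dTAG between DMSO times. Adjusted over the genes whose median error did not exceed 0.5 they were 1 in WT-cKO at 24 h and 34 in WT-dTAG between DMSO times, and with a limit of 1 they were 1 and 36. The FDR counts were 16, 6, 20 and 9 in the order of the Bonferroni counts. Centring on the well measured genes moved values by at most 0.018 and turned the sign of 2 member fold changes. With t in place of the normal, 1 member difference had an unadjusted p under 0.05. Depth is unknown, and its part in the lack of calls was not tested.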
